A study of Mus musculus with 6 samples.

Results

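The genes described here are 10 genes of prostaglandin synthesis, breakdown, transport and reception (Ptgs1, Ptgs2, Ptges, Ptgis, Ptgds, Hpgd, Slco2a1, Ptgfr, Ptger3 and Ptger4), taken by symbol from the 31053 genes counted in the study. They were counted by single-cell RNA-seq in stromal vascular cells of inguinal white adipose tissue (iWAT), the subcutaneous depot in which beige adipocytes form in the cold, from male C57BL/6 mice. Young mice were 9 weeks old and aged mice were 57 weeks old. Every group first spent 3 weeks at 30 °C (thermoneutrality, TN), and was then kept at 30 °C or moved to 6 °C for the last 3 days (3D) or for 14 days (14D). Cells carrying CD45 were removed by sorting, so immune cells are residual in these samples. There was 1 library per age and temperature, 6 in all, and how many mice went into each is not given in the sources used here. The p-values below therefore do not measure the spread between like libraries, since none were repeated. In the age tests they rest on how unequal the age difference was at TN, 3D and 14D, with variance estimates shared across genes. Technical differences between libraries are part of that spread. An age effect that depends on temperature could not be tested apart from it, because such a model leaves no residual degrees of freedom.

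Prostaglandins are short-lived lipid signals made from arachidonic acid. The prostaglandin H synthases Ptgs1 and Ptgs2 (cyclooxygenases, the first mostly constitutive and the second induced by stimuli) make a common precursor, which terminal synthases turn into prostaglandin E (Ptges), prostacyclin (Ptgis) or prostaglandin D (Ptgds). The transporter Slco2a1 takes prostaglandins up into cells and the dehydrogenase Hpgd inactivates them, while Ptgfr, Ptger3 and Ptger4 are receptors on the cell surface. In adipose tissue, prostaglandins are known to act on the differentiation of adipocyte precursors and on beige fat formation.

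The 6 libraries held 52068837 to 88508349 UMIs (unique molecular identifiers, 1 per captured transcript), and 57326 of 68103 barcodes were kept as cells, 8030 to 10880 per library. The aged 14D library was the shallowest, with a median of 2588 UMIs per barcode against 6232 to 8954 in the other libraries, and any pair of libraries shared 30 to 44 cell barcodes. Clusters were named by the marker lists they expressed, and each name below stands for cells like that type: Dpp4+ fibroblasts (1888 to 2690 cells per library), Icam1+ preadipocytes (2188 to 4020), Cd142+ fibroblasts (520 to 814), endothelial cells (447 to 1359), smooth muscle cells/pericytes (SMC/pericytes, 134 to 400), Schwann cells (44 to 113) and residual immune cells (47 to 114). The endothelial marker list summed to 7582 to 8472 CPM (UMIs of a gene per 1000000 UMIs of the class in that library) in the endothelial cells and to at most 61.0 CPM in the Dpp4+, Icam1+ and Cd142+ classes. Cluster 3 (6479 cells) held 6 of the 10 Dpp4+ markers. Its 10 leading genes held 1 marker of the Cd142+ list (Igfbp3) and 0 of the Dpp4+ list, so by the naming rule it is given by number. Cluster 0, the larger Dpp4+ cluster, also had 0 Dpp4+ markers among its 10 leading genes. Clusters without a name, cluster 3 included, held 6.98 to 24.6% of the cells in 5 libraries and 48.6% in the aged 14D library.

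The genes lie on 6 chromosomes of GRCm38 (GENCODE vM21), all as protein-coding genes. Ptgs1 spans chr2:36230426-36252272 on the plus strand, Ptgs2 chr1:150100031-150108227 (plus), Ptges chr2:30889471-30929863 (minus), Ptgis chr2:167191805-167240604 (minus), Ptgds chr2:25466709-25470046 (minus) and Hpgd chr8:56294585-56321043 (plus). Slco2a1 spans chr9:102988712-103096002 (plus), Ptgfr chr3:151796502-151837630 (minus), Ptger3 chr3:157566892-157645888 (plus) and Ptger4 chr15:5206661-5244187 (minus). Of the 10 genes, 9 had a promoter window from RefSeq (GRCm38.p6), here the 250 bases before the RefSeq start. Windows of 4 genes whose levels differed with age or temperature below are shown 5′ to 3′ on the gene's plus strand, with matches to the searched motifs in capitals.
Slco2a1 (chr9:103008237-103008486): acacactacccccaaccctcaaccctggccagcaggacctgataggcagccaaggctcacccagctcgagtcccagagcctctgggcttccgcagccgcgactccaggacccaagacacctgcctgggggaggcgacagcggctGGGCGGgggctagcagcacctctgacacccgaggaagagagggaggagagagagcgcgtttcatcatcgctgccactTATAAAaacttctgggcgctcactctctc
Ptgs1 (chr2:36230176-36230425): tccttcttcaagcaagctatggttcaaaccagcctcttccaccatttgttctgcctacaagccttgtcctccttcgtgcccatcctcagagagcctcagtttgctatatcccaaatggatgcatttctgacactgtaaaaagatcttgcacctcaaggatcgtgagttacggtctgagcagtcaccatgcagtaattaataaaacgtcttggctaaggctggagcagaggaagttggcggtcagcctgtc
Ptgs2 (chr1:150099781-150100030): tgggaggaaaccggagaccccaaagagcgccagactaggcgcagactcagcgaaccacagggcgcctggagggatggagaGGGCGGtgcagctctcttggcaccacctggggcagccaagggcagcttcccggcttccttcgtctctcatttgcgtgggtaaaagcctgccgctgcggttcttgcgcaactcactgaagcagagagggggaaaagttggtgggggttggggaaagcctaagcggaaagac
Hpgd (chr8:56294302-56294551): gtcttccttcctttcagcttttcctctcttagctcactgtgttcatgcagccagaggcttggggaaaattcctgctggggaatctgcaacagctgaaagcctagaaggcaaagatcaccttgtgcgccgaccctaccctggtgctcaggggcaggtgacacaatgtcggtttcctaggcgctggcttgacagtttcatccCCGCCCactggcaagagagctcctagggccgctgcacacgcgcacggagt
Both strands were searched for 5 motifs: the TATA box as TATAAA, the core of the cyclic AMP response element as TGACGT, the AP-1 site as TGANTCA, the E-box as CACGTG and the GC box as GGGCGG. Among 32851 mouse windows of the same length, 12.4% held the TATA box, 6.47% the cyclic AMP element core, 6.75% the AP-1 site, 6.02% the E-box and 32.7% the GC box. The Slco2a1 window held 1 TATA box, 29 bases before the start, and 1 GC box, 106 bases before it. The Ptgs2 and Hpgd windows held 1 GC box each, 170 and 50 bases before the start, and the Ptgs1 window held no match. Guanine and cytosine made up 63.2% of the Slco2a1 window, 61.6% of the Ptgs2 window, 56.8% of the Hpgd window and 48% of the Ptgs1 window, against a median of 52.4% over all windows. A match is a stretch of letters, not evidence that a factor binds there. The RefSeq starts of Slco2a1, Ptges, Ptgds and Ptgfr lie inside the GENCODE spans given above, and those of Hpgd and Ptger3 lie just before them.

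The genes were divided between cell classes. Of the 11869 Ptgs1 UMIs in kept cells, 71.53% were in Dpp4+ fibroblasts. The median over the 6 libraries was 86.1 CPM there, 46.6 CPM in endothelial cells and 3.80 CPM in Icam1+ preadipocytes. The endothelial value joined cluster 8, with a median of 106 CPM, and cluster 6, with 21.0 CPM. The library range of cluster 8 (74.0 to 125 CPM) overlapped that of Dpp4+ fibroblasts (59.6 to 111 CPM). Ptgs2 had its highest medians in Dpp4+ fibroblasts (1578 CPM) and cluster 3 (1439 CPM), which held 52.9 and 24.99% of its UMIs, and its lowest in endothelial cells (45.8 CPM). Shares of cells were taken in cells of at least 2000 UMIs, each thinned to 2000. Ptgs2 was then seen in 74.02% of 13590 Dpp4+ cells (95% exact binomial interval 73.27 to 74.75%, counting error only) and in 4.169% of 3718 endothelial cells. The cells left out for depth were 13 and 181 Dpp4+ and 209 and 102 endothelial cells of the aged TN and aged 14D libraries. Without thinning the library values ran from 87.01 to 91.63% and from 3.753 to 11.8%. Levels are compared between classes only as a description, since the classes come from clusters of the same cells.

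The terminal synthases differed in where they were found. Ptges was highest in Icam1+ preadipocytes, with a median of 128 CPM against 70.6 CPM in Dpp4+ fibroblasts and 11.5 CPM in endothelial cells. Ptgis showed the opposite order, with medians of 154 CPM in Dpp4+ fibroblasts, 132 CPM in cluster 3 and 33.5 CPM in Icam1+ preadipocytes. Thinned to 2000 UMIs, 26.1% of Dpp4+ cells and 0.5648% of endothelial cells held a Ptgis UMI (unthinned library values 51.96 to 72.86% and 0.8094 to 4.553%). Ptgds was close to absent from this tissue fraction, with 22 UMIs in all libraries, 21 of them in kept cells and 61.9% of those in endothelial cells. No Ptgds UMI was seen in 13590 thinned Dpp4+ cells, which allows a share of cells with a UMI of up to 0.02208% at that depth (unthinned 0 to 0.05092% per library).

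Hpgd was an Icam1+ preadipocyte transcript, with 75.63% of its UMIs there and a median of 127 CPM against 28.6 CPM in Dpp4+ fibroblasts and 4.38 CPM in endothelial cells. A Hpgd UMI was seen in 21.56% of thinned Icam1+ cells and in 0.7262% of thinned endothelial cells (unthinned 43.71 to 65.8% and 0.4237 to 3.089%). Slco2a1 was spread more evenly. Its medians were 118 CPM in endothelial cells, 73.5 CPM in cluster 3, 62.2 CPM in Dpp4+ fibroblasts, 56.7 CPM in Icam1+ preadipocytes and 50.4 CPM in Cd142+ fibroblasts, and the library ranges of these classes overlapped. Within the endothelial cells, however, cluster 8 (814 cells) and cluster 6 (3215 cells) differed sharply, with 262 to 354 CPM of Slco2a1 in the former and 1.79 to 9.98 CPM in the latter.

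Receptor transcripts were fewer. Ptger4, a receptor for prostaglandin E that raises cyclic AMP, had medians of 80.7 CPM in immune cells, 72.8 CPM in endothelial cells and 1.62 CPM in Dpp4+ fibroblasts, and was seen in 12.69% of thinned endothelial against 0.3385% of thinned Dpp4+ cells (unthinned 17.45 to 26.06% and 0.7807 to 1.589%). The Ptger4 medians of the endothelial clusters were 81.55 CPM in cluster 6 and 32.8 CPM in cluster 8. Ptger3, a receptor for prostaglandin E that lowers cyclic AMP, had 87.93% of its UMIs in Icam1+ preadipocytes. Its median was 17.2 CPM there and 15.5 CPM in SMC/pericytes, whose library ranges overlapped, and 0.443 CPM in Dpp4+ fibroblasts. Ptgfr, the receptor for prostaglandin F, was low everywhere, with medians of 13.5 CPM in Schwann cells, 4.95 CPM in Cd142+ fibroblasts and 3.11 CPM in Icam1+ preadipocytes, and 2 UMIs in all endothelial cells. The map of median levels by class gives all 10 genes together.

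**Figure D1:**
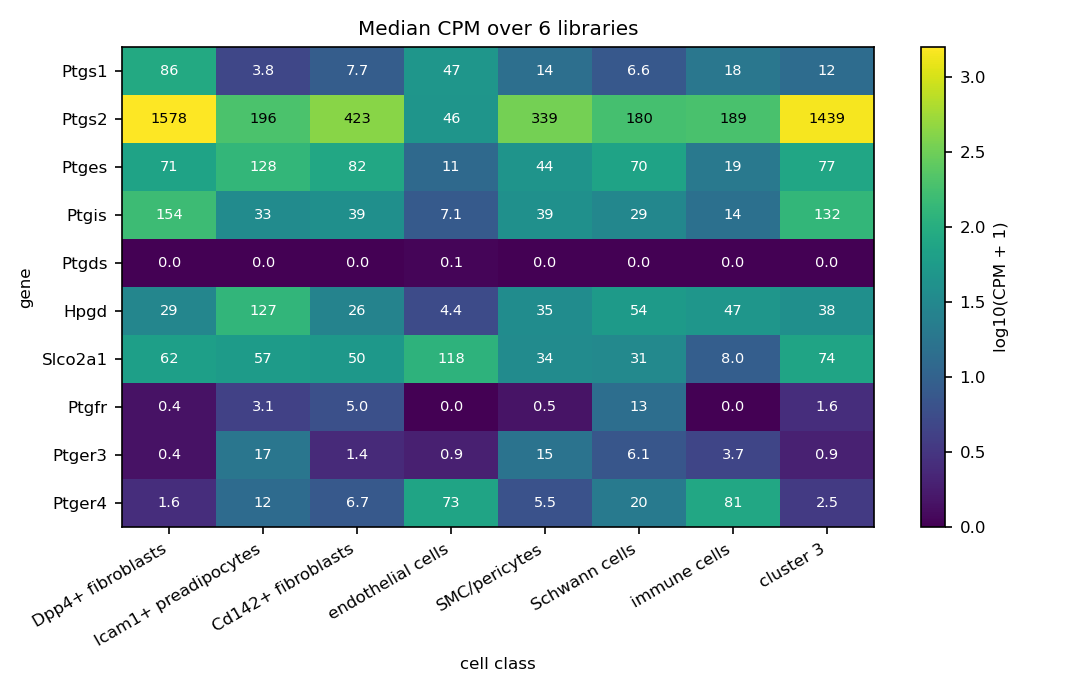
Median CPM over the 6 libraries of each gene (vertical axis) in each cell class (horizontal axis), printed in each cell and coloured by log10(CPM + 1). Ptgs2 stands at 1578 CPM in Dpp4+ fibroblasts and 1439 CPM in cluster 3, Hpgd at 127 CPM in Icam1+ preadipocytes, Slco2a1 at 118 CPM in endothelial cells, and Ptgds at 0.1 CPM or less in every class.

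To compare young with aged mice, the UMIs of each class were summed per library and tested across all genes with edgeR (quasi-likelihood, temperature as a covariate, Benjamini-Hochberg adjustment, threshold 0.05). In Dpp4+ fibroblasts 5 of the 9 genes tested passed, against 15.3% of all genes tested, 3 higher (Slco2a1, Ptgs1, Ptgs2) and 2 lower (Ptgis, Hpgd) in aged mice. In Icam1+ preadipocytes 5 of 9 passed (13.6% of all genes), 3 higher (Slco2a1, Hpgd, Ptgs1) and 2 lower (Ptgis, Ptgfr). In Cd142+ fibroblasts 4 of 9 passed (12.7% of all genes), all higher (Slco2a1, Ptgs2, Ptgs1, Ptgis). In endothelial cells 1 of 7 passed (3.18% of all genes), Slco2a1, which was lower. In SMC/pericytes 0 of 8 passed (0.367% of all genes) with either edgeR or DESeq2, and 2 had an unadjusted p under 0.05. In cluster 3, tested by number, 4 of 9 passed (13.8% of all genes), with Slco2a1 and Ptgs1 higher and Ptgis and Hpgd lower. The median log2 fold change of the tested genes was -0.00 in the Dpp4+, 0.18 in the Icam1+ and 0.33 in the Cd142+ class, beside 0.00, -0.00 and -0.01 over all genes. Ptgds passed the filter on low counts in no class, Ptgfr and Ptger3 did not in endothelial cells, and Ptgfr did not in SMC/pericytes. The age tests were also rerun with 1 library left out. The remaining library of that temperature is then fitted by its own temperature term and carries no weight in the age effect. Leaving out the young or the aged library of a temperature thus gives nearly the same age contrast, and the 2 runs are not separate checks.

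**Figure D2:**
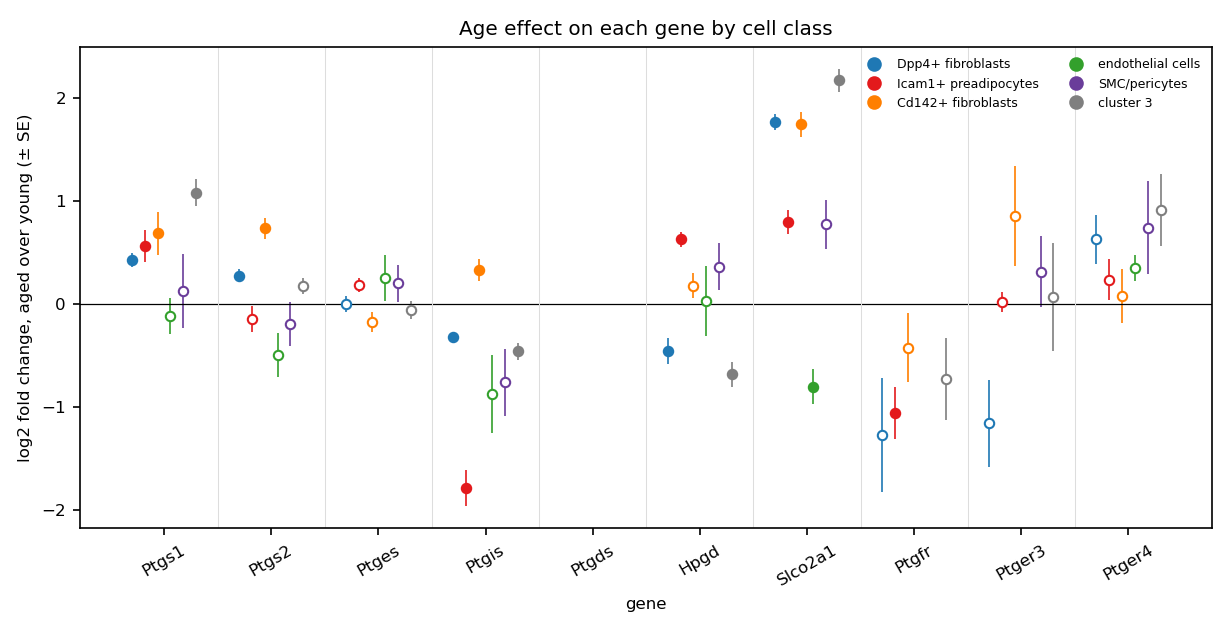
Log2 fold change, aged over young (vertical axis, bars are ± SE), of each gene (horizontal axis) in 6 cell classes from 3 young and 3 aged libraries. Filled points passed an adjusted p of 0.05, and Slco2a1 lies at 1.76 in Dpp4+ fibroblasts but at -0.80 in endothelial cells, while Ptgis lies at -1.79 in Icam1+ preadipocytes.

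Of the cyclooxygenases, Ptgs1 was higher in aged fibroblasts by modest amounts. In Dpp4+ fibroblasts it measured 60.1, 59.6 and 90.3 CPM in the young TN, 3D and 14D libraries and 84.7, 87.5 and 111 CPM in the aged ones. At each temperature the aged library was higher, but the young 14D library exceeded the aged TN and 3D libraries. The log2 fold change was 0.43 (SE 0.07, adjusted p = 7.4e-04, edgeR), and 0.24 (adjusted p = 0.106) when equal numbers of cells thinned to 2000 UMIs were used. In cluster 3 Ptgs1 was at 8.98, 9.88 and 9.91 CPM in young and 14.8, 19.6 and 26.6 CPM in aged libraries, with no overlap (log2 fold change 1.08, SE 0.13, adjusted p = 1.0e-04, edgeR). In Cd142+ fibroblasts (0.68, adjusted p = 0.041, edgeR) and Icam1+ preadipocytes (0.56, adjusted p = 0.048, edgeR), Ptgs1 stood at 2.53 to 15.3 CPM, and both calls were lost without the young 3D, young 14D, aged 3D or aged 14D library (0.52 to 0.69, adjusted p 0.192 to 0.249, in Cd142+ fibroblasts and 0.45 to 0.50, adjusted p 0.192 to 0.224, in Icam1+ preadipocytes). In all, the call was lost under 13 of 18 alternatives in Icam1+ preadipocytes, among them cluster 1 (0.59, adjusted p = 0.0889) and cluster 2 (0.82, adjusted p = 0.114) alone, and under 8 of 16 in Cd142+ fibroblasts, DESeq2 and thinned cells included in both.

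Ptgs2, the inducible cyclooxygenase, was higher in aged Cd142+ fibroblasts. It measured 362, 313 and 307 CPM in the young TN, 3D and 14D libraries and 516, 483 and 638 CPM in the aged ones. All 3 aged libraries lay above all 3 young ones, with a log2 fold change of 0.73 (SE 0.10, adjusted p = 8.4e-05, edgeR). With cells assigned one by one from marker UMIs instead of by cluster, the change was 0.07 (adjusted p = 0.83). In the same Cd142+ sums the 10 Icam1+ preadipocyte markers, none at 0 in all libraries, summed to 4723 to 5105 CPM in young and 3197 to 3848 CPM in aged libraries, without overlap. The 10 Dpp4+ fibroblast markers summed to 1070 to 1578 CPM in young and 1259 to 1695 CPM in aged libraries, with overlap. Their highest sum was in the aged 14D library, which also had the highest Ptgs2. The part of these markers in the Ptgs2 difference was not tested. In Dpp4+ fibroblasts, where Ptgs2 was most abundant, the values were 1649, 1371 and 1248 CPM in young and 2091, 1577 and 1579 CPM in aged libraries. The aged library was higher at each temperature and the ages overlapped through the young TN library (log2 fold change 0.27, SE 0.06, adjusted p = 0.0081, edgeR). That call was lost without the young TN (0.23, adjusted p = 0.116), young 3D (0.30, adjusted p = 0.0578), aged TN (0.24, adjusted p = 0.108) or aged 3D library (0.30, adjusted p = 0.0588). In Icam1+ preadipocytes, at 143 to 248 CPM, the difference did not pass (-0.15, SE 0.13, adjusted p = 0.49, edgeR).

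Ptgs2 is also an immediate early gene that cell isolation can induce, so a list of 12 dissociation and immediate early genes is given beside it. In aged Cd142+ fibroblasts 2 of the 12 were higher, the transcription factor subunit Junb (log2 fold change 0.38) and Ier3 (0.65), and the summed list was at 25427 to 28627 CPM in young and 23814 to 30619 CPM in aged libraries. In aged Dpp4+ fibroblasts Junb (0.33) and the heat shock gene Hspa1b (0.34) were higher and Jun (-0.30) was lower, with sums of 17894 to 21214 CPM in young and 17126 to 24597 CPM in aged libraries. In Icam1+ preadipocytes Ier3 (0.51) and Hspa1a (0.89) were higher, and in cluster 3 Junb (0.29) and Hspa1b (0.37) were. None of the 12 passed in endothelial cells or SMC/pericytes with edgeR or DESeq2, where 3 and 5 had an unadjusted p under 0.05. The part of these genes in the Ptgs2 differences was not tested.

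Ptges, the prostaglandin E synthase, passed the test in no class. In Icam1+ preadipocytes it measured 100, 120 and 128 CPM in young and 129, 130 and 131 CPM in aged libraries, so that the aged libraries lay just above the young ones (log2 fold change 0.18, SE 0.07, adjusted p = 0.125, edgeR). In Dpp4+ fibroblasts it stood at 63.8 to 80.6 CPM at both ages (-0.00, SE 0.07, adjusted p = 0.99, edgeR).

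Ptgis, the prostacyclin synthase, was lower in aged Icam1+ preadipocytes. It measured 45.3, 44.0 and 51.7 CPM in the young TN, 3D and 14D libraries and 9.74, 10.8 and 22.9 CPM in the aged ones. Every aged library lay below every young library, with a log2 fold change of -1.79 (SE 0.17, adjusted p = 5.7e-04, edgeR). The difference was seen in both clusters of this class. Cluster 1 had 54.4, 50.2 and 62.7 CPM in young and 14.1, 16.9 and 34.6 CPM in aged libraries (-1.43, adjusted p = 0.0011, edgeR), and cluster 2 had 34.6, 35.1 and 35.4 CPM in young and 5.22, 3.55 and 10.0 CPM in aged libraries (-2.58, adjusted p = 4.8e-05, edgeR). The aged 14D library was the highest of the aged libraries in both clusters. Dpp4+ fibroblast markers, 10 genes of which none was at 0 in all libraries, summed to 807 to 1232 CPM in the young and 537 to 958 CPM in the aged Icam1+ preadipocytes, and their part in the Ptgis difference was not tested.

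In Dpp4+ fibroblasts, the class with most Ptgis, the values were 158, 171 and 179 CPM in young and 119, 144 and 150 CPM in aged libraries. The ages did not overlap and the log2 fold change was -0.32 (SE 0.06, adjusted p = 0.0016, edgeR). Cluster 3 gave 139, 155 and 173 CPM in young and 102, 124 and 118 CPM in aged libraries (-0.46, adjusted p = 0.0014, edgeR), again without overlap. In Cd142+ fibroblasts the order was the other way, with 34.8, 38.0 and 34.1 CPM in young and 39.2, 47.2 and 48.1 CPM in aged libraries (0.33, SE 0.11, adjusted p = 0.048, edgeR). That small rise depended on the choice of cells. It was negative with fixed cell limits (-0.15), at the lower and higher clustering resolutions (-0.10 and -0.04) and with cells assigned from marker UMIs (-0.70, adjusted p = 0.040). It was also lost without the young 3D (0.32, adjusted p = 0.256), young 14D (0.27, adjusted p = 0.20), aged 3D (0.32, adjusted p = 0.229) or aged 14D library (0.26, adjusted p = 0.222). In SMC/pericytes Ptgis did not pass (61.6, 35.5 and 42.0 CPM in young and 17.2, 21.4 and 57.3 CPM in aged libraries). Without the young 14D or the aged 14D library it did, at -1.42 (adjusted p = 3.2e-06, edgeR) and -1.41 (adjusted p = 5.1e-06, edgeR).

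Slco2a1, the prostaglandin transporter, rose with age in all 3 fibroblast classes. In Dpp4+ fibroblasts it measured 29.5, 33.4 and 24.5 CPM in the young TN, 3D and 14D libraries and 91.0, 107 and 102 CPM in the aged ones. All 3 aged libraries lay above all 3 young ones, and the fitted age effect was 3.40-fold (log2 fold change 1.76, SE 0.07, adjusted p = 8.2e-09, edgeR). In Cd142+ fibroblasts the values were 21.9, 28.9 and 19.0 CPM in young and 83, 71.8 and 80.2 CPM in aged libraries, with no overlap and a fitted effect of 3.34-fold (1.74, SE 0.12, adjusted p = 4.2e-08, edgeR). Cluster 3 had 34.0, 33.8 and 28.5 CPM in young and 113, 178 and 148 CPM in aged libraries (2.17, SE 0.11). Both of the fibroblast calls held under every alternative run, at 1.64 to 1.88 in Dpp4+ and 1.18 to 2.07 in Cd142+ fibroblasts.

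In Icam1+ preadipocytes the rise in Slco2a1 was smaller. The values were 42.1, 58.0 and 40.1 CPM in young and 55.4, 109 and 81.7 CPM in aged libraries. At each temperature the aged library was higher, and the aged TN library lay below the young 3D library (log2 fold change 0.79, SE 0.12, adjusted p = 0.0039, edgeR). Taken alone, cluster 1 had 51.4, 67.2 and 44.5 CPM in young and 79.8, 138 and 114 CPM in aged libraries (1.02, adjusted p = 0.0012, edgeR). Cluster 2 had 31.2, 44.6 and 33.6 CPM in young and 30.4, 74.8 and 45.8 CPM in aged libraries and did not pass (0.42, adjusted p = 0.0793, edgeR). Markers of endothelial cells, which also carry Slco2a1, were measured in the same fibroblast sums. The 10 endothelial markers summed to 10.1 to 16.4 CPM in young and 19.7 to 31.1 CPM in aged Dpp4+ fibroblasts, 9.49 to 11.6 and 10.9 to 26.2 CPM in Icam1+ preadipocytes, and 9.37 to 11.9 and 21.4 to 61.0 CPM in Cd142+ fibroblasts, with no marker at 0 in all libraries. The part of this RNA in the Slco2a1 differences was not tested.

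**Figure D3:**
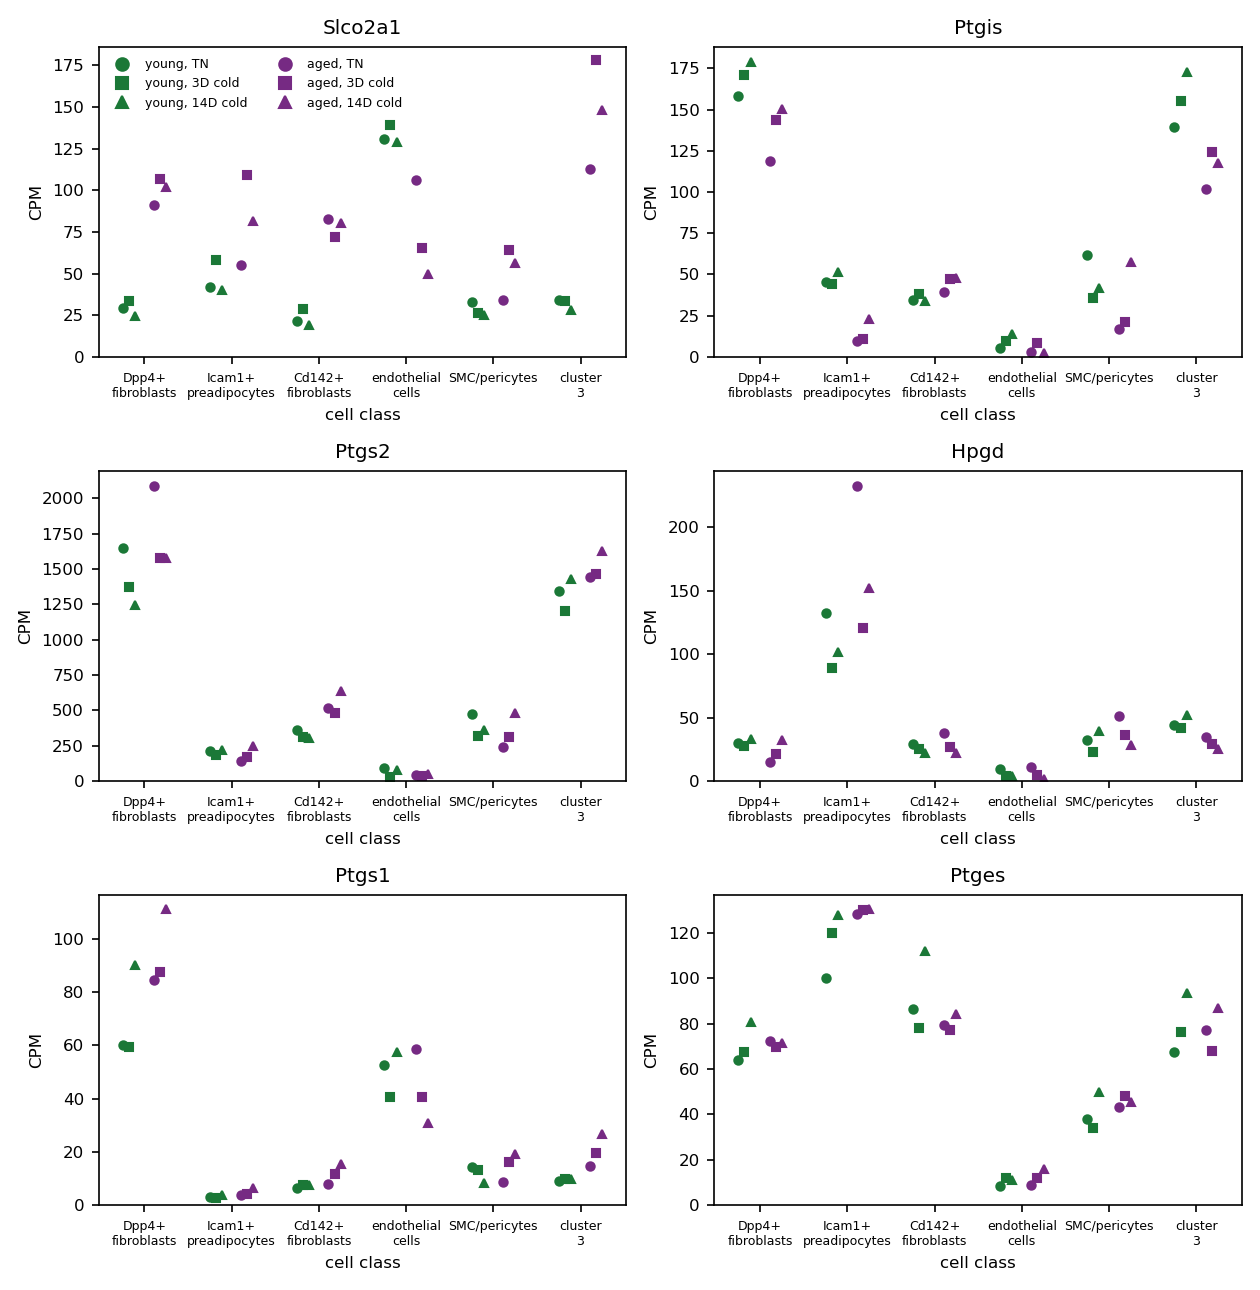
CPM (vertical axes, from 0) of 6 genes in each library by cell class (horizontal axes); green symbols are young and purple symbols aged libraries, circles TN, squares 3D and triangles 14D. The aged Slco2a1 values (91.0 to 107 CPM in Dpp4+ fibroblasts) lie above all young ones (24.5 to 33.4 CPM), and the aged Ptgis values in Icam1+ preadipocytes (9.74 to 22.9 CPM) lie below all young ones (44.0 to 51.7 CPM).

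In endothelial cells, Slco2a1 was lower in aged mice. It measured 131, 139 and 129 CPM in the young TN, 3D and 14D libraries and 106, 65.3 and 49.7 CPM in the aged ones, with no overlap (log2 fold change -0.80, SE 0.17, adjusted p = 0.033, edgeR). The call was lost without the young 14D library (-0.61, adjusted p = 0.0601), and it held under 12 of 18 alternatives. It was also lost without the temperature term, at the higher clustering resolution and with cells assigned from marker UMIs. Cluster 8, whose leading genes include Plvap and Lrg1, held nearly all of the endothelial Slco2a1, and it made up 23.6, 25.3 and 26.6% of the young and 21.1, 14.1 and 9.32% of the aged endothelial cells. Within cluster 8, Slco2a1 was at 354, 341 and 324 CPM in young and 310, 278 and 262 CPM in aged libraries (-0.22, SE 0.12, adjusted p = 0.557, edgeR). Within cluster 6, whose leading genes include Gpihbp1 and Car4, it was at 1.79 to 9.98 CPM at both ages (0.06, SE 0.46, adjusted p = 0.975, edgeR). The fall over the whole class was thus accompanied by a smaller share of cluster 8, and neither cluster passed the test alone. Lymphatic endothelial markers, 6 genes of which none was at 0 in all libraries, summed to 208 to 309 CPM in the young and 79.4 to 186 CPM in the aged endothelial sums, without overlap, and their part in the Slco2a1 difference was not tested. The shares of cluster 8 are given as a description, since 1 library per age and temperature had 44 to 287 cells in cluster 8. In SMC/pericytes Slco2a1 was at 25.2 to 32.7 CPM in young and 34.3 to 64.2 CPM in aged libraries and did not pass (0.77, adjusted p = 0.261, edgeR), but it passed without the young TN (1.25, adjusted p = 0.0032) or the aged TN library (1.25, adjusted p = 0.0018).

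**Figure D4:**
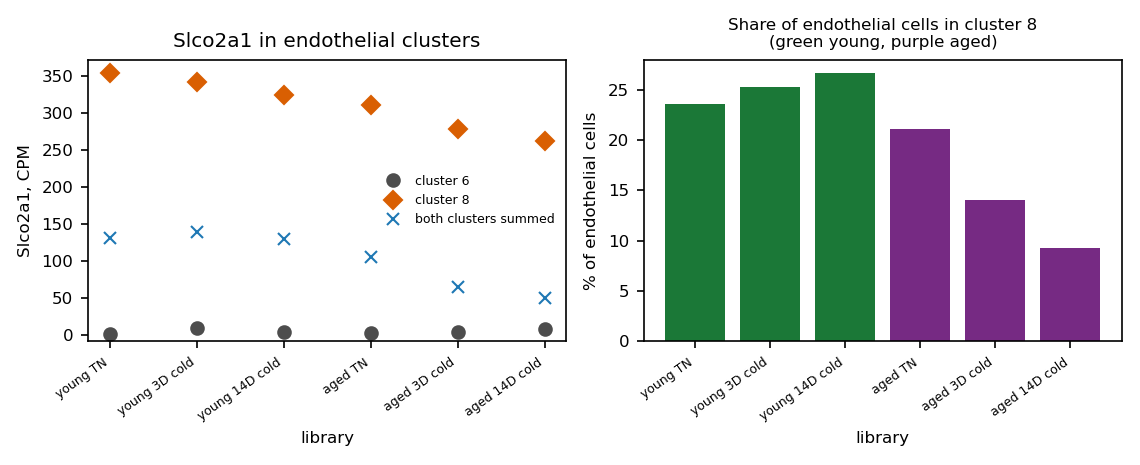
Left, Slco2a1 CPM in each library (horizontal axis) in endothelial cluster 6, cluster 8 and both summed. Right, cluster 8 as a percentage of endothelial cells, green young and purple aged, from 26.6% in the young 14D to 9.32% in the aged 14D library, while Slco2a1 within cluster 8 stays between 262 and 354 CPM.

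Hpgd, the dehydrogenase that inactivates prostaglandins, was higher with age in Icam1+ preadipocytes and lower in Dpp4+ fibroblasts. In Icam1+ preadipocytes it measured 132, 89 and 102 CPM in the young TN, 3D and 14D libraries and 233, 121 and 152 CPM in the aged ones. The aged library was higher at each temperature, and the ages overlapped because TN libraries were high at both ages (log2 fold change 0.63, SE 0.07, adjusted p = 0.0012, edgeR). Both clusters of the class passed alone (0.46 and 0.68). In Dpp4+ fibroblasts it measured 29.6, 27.5 and 32.8 CPM in young and 14.9, 21.2 and 32.4 CPM in aged libraries (-0.45, SE 0.13, adjusted p = 0.028, edgeR). The 14D libraries hardly differed, and the call was lost without the young TN (-0.23, adjusted p = 0.124), young 3D (-0.51, adjusted p = 0.085), aged TN (-0.23, adjusted p = 0.133) or aged 3D library (-0.51, adjusted p = 0.0941). In cluster 3 Hpgd was at 44.4, 41.8 and 52.2 CPM in young and 34.5, 29.1 and 25.5 CPM in aged libraries (-0.68, adjusted p = 0.0018, edgeR), with no overlap. Tested directly, the difference between these age effects in Icam1+ preadipocytes and Dpp4+ fibroblasts did not pass (1.06, SE 0.33, adjusted p = 0.196, edgeR).

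Of the receptors, only Ptgfr passed with age, and only in Icam1+ preadipocytes. It measured 4.32, 3.09 and 5.06 CPM in young and 3.13, 1.46 and 1.27 CPM in aged libraries, with the aged TN library inside the young range (log2 fold change -1.06, SE 0.25, adjusted p = 0.028, edgeR). At these low counts (567 UMIs in the class) the call was lost without the young 14D (-0.73, adjusted p = 0.0972) or the aged 14D library (-0.73, adjusted p = 0.0938). In all, it was lost under 6 of 18 alternatives, among them cluster 1 alone (-0.85, adjusted p = 0.0607, edgeR). Cluster 2 alone passed (-1.26, adjusted p = 0.0288, edgeR). Ptger3 in Icam1+ preadipocytes ran from 14.3 to 24.9 CPM with the ages overlapping (0.02, adjusted p = 0.94, edgeR). Ptger4 in endothelial cells was at 76.7, 47.5 and 58.5 CPM in young and 77.9, 73.8 and 71.8 CPM in aged libraries, which overlapped (0.35, adjusted p = 0.199, edgeR). In Icam1+ preadipocytes it passed without the young TN or the aged TN library (0.61 in both) but not with all 6 (0.24, adjusted p = 0.49, edgeR). In Schwann cells (44 to 113 per library), Ptgfr was at 7.15, 7.28 and 14.1 CPM in young and 38.2, 25.9 and 12.9 CPM in aged libraries, 40 UMIs in all, and was not tested.

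Whether the age effect differed between cell classes was tested as the interaction of age and class on 12 sums with the library as a block (edgeR, adjusted over all genes). Between Icam1+ preadipocytes and Dpp4+ fibroblasts, 2 of 9 genes passed (1.2% of all genes). The Ptgis fall was larger in Icam1+ preadipocytes (difference of log2 fold changes -1.47, SE 0.21, adjusted p = 0.011), and the Slco2a1 rise was smaller there (-0.97, SE 0.18, adjusted p = 0.035). The Ptgis difference stayed between -2.13 and -1.29 under all 16 alternatives, but no longer passed without the young TN (adjusted p = 0.0519), young 14D (0.0755) or aged 3D library (0.0613). That of Slco2a1 stayed between -1.18 and -0.74 and no longer passed without the young TN (adjusted p = 0.0791), young 3D (0.0898), young 14D (0.159) or aged 14D library (0.0732).

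Between Cd142+ and Dpp4+ fibroblasts 1 of 9 genes passed (1.82% of all genes), Ptgis (0.66, SE 0.11, adjusted p = 0.0024, edgeR), which was lost with fixed cell limits (0.21), at both other resolutions (0.26 and 0.31) and with cells assigned from marker UMIs (-0.33). For Slco2a1 the difference between these classes was -0.00 (SE 0.13, adjusted p = 1.0, edgeR). Between Cd142+ fibroblasts and Icam1+ preadipocytes 3 of 9 passed (2.05% of all genes), namely Ptgis (2.14, SE 0.20, adjusted p = 5.6e-05), Ptgs2 (0.88, SE 0.12, adjusted p = 0.0012) and Slco2a1 (0.96, SE 0.23, adjusted p = 0.046). The Ptgis difference passed under all 15 alternatives run for it (1.55 to 2.83). The Ptgs2 difference was lost with cells assigned from marker UMIs (-0.01), and that of Slco2a1 was lost without the young TN (0.0802), young 3D (0.149), young 14D (0.20), aged TN (0.0545) or aged 14D library (0.0823, adjusted p in each case). Against endothelial cells only Slco2a1 passed, with 1 gene of 9 against Dpp4+ (1.72% of all genes), 1 of 9 against Icam1+ (1.47%) and 1 of 8 against Cd142+ cells (1.96%). The endothelial age effect was lower by 2.52 log2 units than in Dpp4+ fibroblasts (adjusted p = 6.7e-05, edgeR), by 1.55 than in Icam1+ preadipocytes (adjusted p = 0.036) and by 2.54 than in Cd142+ fibroblasts (adjusted p = 5.7e-05).

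Of the other pathway genes, Pla2g4a and Ltc4s had age effects that differed between classes. The Pla2g4a effect was larger in Cd142+ fibroblasts than in Dpp4+ fibroblasts (0.58, SE 0.13, adjusted p = 0.021, edgeR) and Icam1+ preadipocytes (0.64, SE 0.13, adjusted p = 0.015, edgeR). With DESeq2, 0 of the other pathway genes passed between Cd142+ fibroblasts and Icam1+ preadipocytes, and 1 passed between Cd142+ and Dpp4+ fibroblasts. The Ltc4s effect in Dpp4+ fibroblasts exceeded that in Cd142+ fibroblasts (Cd142+ minus Dpp4+ -2.23, adjusted p = 0.021, edgeR) and in endothelial cells (endothelial minus Dpp4+ -2.88, adjusted p = 0.013, edgeR), and the endothelial effect was also below that in Icam1+ preadipocytes (-1.42, adjusted p = 0.043, edgeR).

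The effect of cold exposure was tested as both cold terms together with age as a covariate, so each temperature had 2 libraries. In Dpp4+ fibroblasts 2 of 9 genes passed (9.83% of all genes). Ptgs1 rose after 14D of cold, from 60.1 CPM at TN to 90.3 CPM in young and from 84.7 to 111 CPM in aged mice, and hardly moved at 3D (log2 differences from TN -0.00 at 3D and 0.49 at 14D, adjusted p = 0.0025, edgeR). Ptgs2 fell, from 1649 CPM at TN to 1371 and 1248 CPM in young and from 2091 to 1577 and 1579 CPM in aged mice (-0.36 at 3D and -0.41 at 14D, adjusted p = 0.0061, edgeR). The Ptgs2 call was lost without the aged TN library (-0.36 at 14D, adjusted p = 0.158) and under 6 other alternatives, among them cluster 3 added to the class (-0.25 at 14D, adjusted p = 0.0777). In cluster 3 itself, which was not called (adjusted p = 0.253, edgeR), Ptgs2 was at 1342, 1205 and 1433 CPM in young and 1446, 1467 and 1626 CPM in aged TN, 3D and 14D libraries, so it was not lower at 14D than at TN (-0.11 at 3D and 0.14 at 14D). In the Dpp4+ fibroblasts 4 of the 12 dissociation and immediate early genes passed and were lower in the cold, namely Fos (-0.26 and -0.52), Egr1 (-0.24 and -0.53), Ier2 (-0.31 and -0.62) and Dusp1 (-0.57 and -0.77), and the part of these genes in the Ptgs2 fall was not tested.

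In Icam1+ preadipocytes 2 of 9 genes passed with temperature (5.12% of all genes). Hpgd fell in the cold, from 132 CPM at TN to 89 and 102 CPM in young and from 233 to 121 and 152 CPM in aged mice (-0.73 at 3D and -0.49 at 14D, adjusted p = 0.0083, edgeR). Slco2a1 peaked at 3D, at 58.0 CPM against 42.1 CPM at TN in young and 109 against 55.4 CPM in aged mice (0.75 at 3D and 0.26 at 14D, adjusted p = 0.041, edgeR). The Slco2a1 call was lost without the young 14D (adjusted p = 0.0519) or the aged 14D library (adjusted p = 0.0504), and in cluster 1 alone (0.59 at 3D, adjusted p = 0.0903). No gene passed in Cd142+ fibroblasts (3.03% of all genes), endothelial cells (0.647%), SMC/pericytes (0.063%) or cluster 3 (5.03%) with edgeR or DESeq2. At an unadjusted p under 0.05 there were 2, 2, 0 and 4 in these classes.

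**Figure D5:**
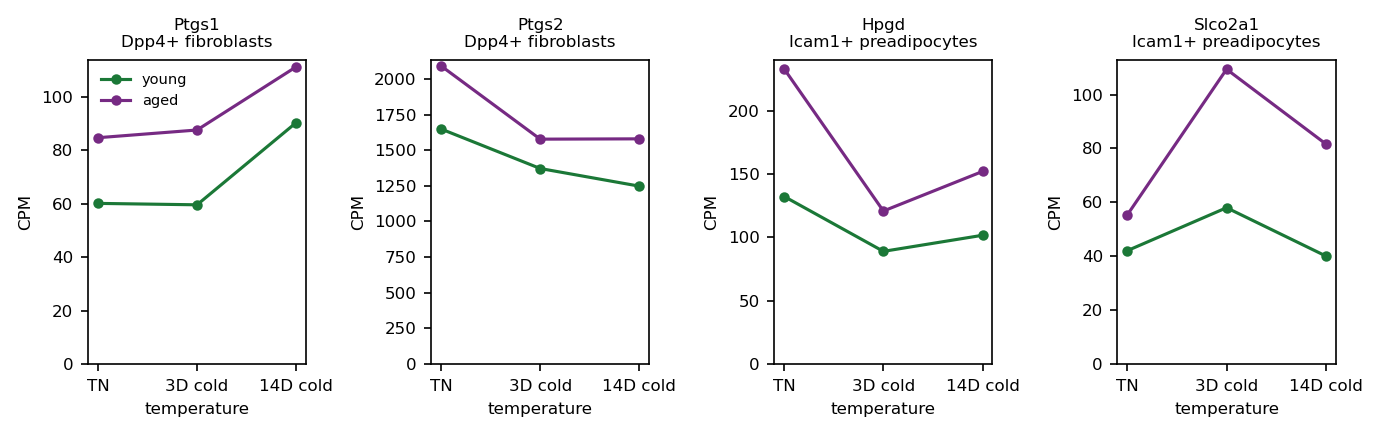
CPM (vertical axes, from 0) of the 4 gene and class pairs that passed the temperature test, by temperature (horizontal axes), with 1 library per point, green young and purple aged. At both ages Ptgs1 is highest at 14D, Ptgs2 and Hpgd are highest at TN and Slco2a1 is highest at 3D.

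Of 27 other genes of the pathway, 12 to 19 were tested per class. With age, 4 of 17 passed in Dpp4+ fibroblasts (15.3% of all genes), 4 of 19 in Icam1+ preadipocytes (13.6%), 2 of 17 in Cd142+ fibroblasts (12.7%) and 2 of 15 in cluster 3 (13.8%), the last 2 counts being near the share of all genes, and 0 of 12 in endothelial cells and in SMC/pericytes (3 and 1 at an unadjusted p under 0.05, 0 with DESeq2). Akr1c18, an aldo-keto reductase, was lower with age in Dpp4+ fibroblasts, at 144, 182 and 175 CPM in young and 93.2, 133 and 184 CPM in aged libraries, where the 14D libraries did not show the difference (log2 fold change -0.35, adjusted p = 0.021, edgeR). In cluster 3 Akr1c18 was at 58.3, 91.6 and 83.8 CPM in young and 12.1, 22.5 and 49.5 CPM in aged libraries, with no overlap (-1.52, adjusted p = 8.0e-05, edgeR). Pla2g4a, the cytosolic phospholipase that releases arachidonic acid, was higher in aged Cd142+ fibroblasts, at 22.1, 20.8 and 21.5 CPM in young and 30.5, 35.4 and 34.0 CPM in aged libraries (0.65, adjusted p = 0.0015, edgeR). With DESeq2, the age calls among these other genes numbered 1 in Dpp4+ fibroblasts, 3 in Icam1+ preadipocytes, 0 in Cd142+ fibroblasts and 1 in cluster 3. Neither Cd142+ call, Pla2g4a included, was thus kept with DESeq2.

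Ptgir, the prostacyclin receptor, was higher in aged Icam1+ preadipocytes, at 10.4, 11.9 and 10.9 CPM in young and 16.6, 20.1 and 12.8 CPM in aged libraries, with no overlap (0.58, adjusted p = 0.013, edgeR). In that class the prostacyclin synthase Ptgis was lower, as above. Ltc4s, the leukotriene C synthase, was higher in Icam1+ preadipocytes (0.59) and in Dpp4+ fibroblasts (2.26, at 0.20 to 3.04 CPM). Fam213b, a prostamide and prostaglandin F synthase, was lower in Dpp4+ (-0.32) and Icam1+ cells (-0.40), the reductase Ptgr1 in Icam1+ cells (-0.50), and the receptor partner Ptgfrn in Dpp4+ cells (-0.22), Cd142+ cells (-0.31) and cluster 3 (-0.34). With temperature, 4 of 17 passed in Dpp4+ fibroblasts, namely Akr1c18 (0.39 at 3D and 0.62 at 14D), Ptgr1 (-0.85 and -0.18), Pla2g2e (-1.16 and -0.72) and Ltc4s (-0.25 and 1.16). Akr1c18 also passed in cluster 3 (0.56 and 1.01), the 1 gene of 15 there, and none passed in the other classes with edgeR, while DESeq2 called 1 in Icam1+ preadipocytes and an unadjusted p under 0.05 was reached by 1 to 5 genes per class. In Dpp4+ fibroblasts DESeq2 called 1 of these genes with temperature, and in cluster 3 it called 0.

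Genes with the most similar pattern to each of 7 genes were ranked by Pearson's r of log2(CPM + 1) over 30 sums (5 classes by 6 libraries) among 10024 genes. The sums share libraries and mostly reflect differences between classes, so r is given without a p. Ptgs2 was closest to Clip4 (0.98) and Sema3b (0.97), Ptges to Ifi204 (0.98), Ptgis to 1700019D03Rik (0.96), Hpgd to Smoc2 (0.94) and Ptger4 to Dock9 (0.97). Slco2a1 had no comparably close gene, with Nceh1 (0.82), Stx3 (0.78) and Gch1 (0.76) highest.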

How the data were processed

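Single-cell 3′ gene expression was measured in 6 libraries, 1 per age and temperature. The deposited files hold raw UMI counts per gene and barcode, which the authors made with Cell Ranger 3.1.0 (per the file headers) on mm10. The submitters' processing notes also name R 4.1.1 and Seurat. Per library, barcodes within 3 median absolute deviations and above 200 genes were kept, the 10 genes, the other listed genes and all markers were left out of 6000 variable genes, and cells were clustered (15 components, 20 neighbours, leidenalg 0.10.2, resolution 0.5, Python 3.11.15). A cluster was named if at least 3 markers and 50% of a list were detected in 10% of its cells, at 1.5 times the level elsewhere. It stayed unnamed with over 50% high doublet scores, or with more of another list than its own among its 10 leading genes. Shallow clusters (median UMI ratio to the library under 0.3333) without an own leading marker also stayed unnamed. Cluster 4, which held 36.42% of the aged 14D library, had 3 of 10 SMC/pericyte markers and was unnamed. Doublets were scored against simulated ones and removed only as an alternative.

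UMIs were summed per library and class and tested with edgeR 4.0.16 (R 4.3.3; TMM, filterByExpr, quasi-likelihood, age and temperature terms, 2 residual degrees of freedom). Interactions of age and class used 12 sums with library as a block (4 residual degrees of freedom). Alternatives were DESeq2 1.42.0, other scaling, filters, covariates, cell limits, resolutions and cell assignment, and each library left out. Tested on simulated data, a 1 log2 change in 200 genes was recovered for 91% (Dpp4+ fibroblasts, 12524 genes), 81% (Icam1+ preadipocytes, 13337 genes), 83.5% (Cd142+ fibroblasts, 10920 genes), 75.5% (endothelial cells, 10616 genes) and 71.5% (SMC/pericytes, 9296 genes), and false calls made up 3.70, 9.50, 6.70, 9.04 and 4.67% of the calls in these classes at an adjusted p threshold of 0.05. The changed genes had a mean of at least 10 UMIs per library, no temperature effect was simulated, and the dispersions came from these same data. The recovery therefore does not cover genes with fewer UMIs or changes smaller than 1 log2 unit. All 10 genes are named in every class, of 27 other pathway genes those past the threshold are, and the 3 genes most like a member were those of highest r among genes of at least 5 CPM, for members of at least 20 CPM in a class. The genes, lists and tests were chosen with earlier results of these data known. Intervals and floors cover counting error only. The gene closest in pattern to Ptgs1 is not reported here.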

Additional observations from a re-analysis of the deposited data

Results flagged for a closer look

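Age effects that differed between cell classes, by the test of the difference itself (edgeR's quasi-likelihood test, Benjamini-Hochberg adjusted over all genes, 3 young and 3 aged libraries), concerned Ptgis, Ptgs2 and Slco2a1. The differences are of log2 fold changes, aged over young. For Ptgis the effect in Cd142+ fibroblasts exceeded that in Dpp4+ fibroblasts by 0.66 and that in Icam1+ preadipocytes by 2.14, and Icam1+ preadipocytes minus Dpp4+ fibroblasts gave -1.47. In the underlying values, Ptgis was lower in all 3 aged libraries of the Icam1+ and Dpp4+ classes. For Ptgs2, Cd142+ fibroblasts minus Icam1+ preadipocytes gave 0.88. For Slco2a1, Cd142+ fibroblasts minus Icam1+ preadipocytes gave 0.96 and Icam1+ preadipocytes minus Dpp4+ fibroblasts gave -0.97. Slco2a1 in endothelial cells gave -2.54 against Cd142+ fibroblasts, -2.52 against Dpp4+ fibroblasts and -1.55 against Icam1+ preadipocytes. The endothelial values move with the share of cluster 8 among endothelial cells (21.1 to 9.32% in the aged libraries and 23.6 to 26.6% in the young ones), and the part of that share was not tested in these differences.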

How the results depend on the processing

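The counts of genes called with age or temperature moved with the settings. With age, the 5 in Dpp4+ fibroblasts became 1 without the temperature term (3 to 5 leaving out 1 library each), and the 5 in Icam1+ preadipocytes became 1 without that term, 3 with equal cells thinned to 2000 UMIs and 3 in cluster 1 or 2 alone (3 to 6). The 4 in Cd142+ fibroblasts became 2 with DESeq2, without the temperature term or without high doublet scores (2 to 4). In endothelial cells 1 became 2 with no filter on low counts and 0 without the temperature term, at resolution 1.0, with cells assigned from marker UMIs, or in cluster 6 or 8 alone (0 to 2). In SMC/pericytes 0 became 2 with no filter and 1 with fixed cell limits or without high doublet scores (0 to 1). With temperature, 2 in Dpp4+ fibroblasts became 5 with no filter, 0 without the age term, 1 with fixed cell limits or at resolution 0.3, and 0 at resolution 1.0 or with cluster 3 added (2 to 5). In Icam1+ preadipocytes 2 became 6 with no filter, 0 without the age term, and 1 at resolution 0.3 or in cluster 1 alone (1 to 7). In Cd142+ fibroblasts 0 became 1 with no filter (0 leaving out any library), in endothelial cells 0 became 2 with no filter and 1 with fixed limits (0 to 1), and in SMC/pericytes leaving out 1 library gave 0 to 2. The 3 genes whose age effect differed between fibroblast classes became 5 with no filter (2 to 4). The cause of these moves was not tested. In the age tests, the runs without the young and without the aged library of a temperature have nearly the same age contrast. They are counted as separate alternatives here and below.

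Of 577 recomputed effects on single genes, 459 kept their side of the threshold, 91 lost the call and 20 gained one. Another 7 turned direction with a call in the original or the recomputed test. The turned values were Ptgis with age in Cd142+ fibroblasts (-0.15 with fixed limits, -0.10 and -0.044 at resolutions 0.3 and 1.0, -0.70 from marker UMIs), its difference from Dpp4+ fibroblasts (-0.33 from marker UMIs), the Ptgs2 difference between Cd142+ fibroblasts and Icam1+ preadipocytes (-0.013 from marker UMIs) and Slco2a1 in endothelial cluster 6 (0.057). The 459 also include effects that turned direction with no call in either test. Examples with age are Ptgs2 in Icam1+ preadipocytes (-0.15, up to 0.07) and in endothelial cells (-0.50, up to 0.42). Slco2a1 in SMC/pericytes is another (0.77, down to -0.33). Assignment from marker UMIs gave the class of the cluster to 68.71% of the cells in named clusters, and 18.92% of all 57326 kept cells lay near its cut. It also placed cells of the unnamed clusters in the named classes, so its sums hold added as well as reassigned cells. Cluster 3, the cells kept alone by number and the endothelial interactions were added after seeing the data. The labels give no replicate numbers, and the temperature term of the age test sets young against aged libraries of the same temperature.

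Depth limits Ptgds (22 UMIs) and Ptgfr (974 UMIs in all libraries), and in bulk sums of a class fewer expressing cells and less RNA per cell cannot be told apart.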
